A study of Homo sapiens with 12 samples.

Results

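SkMel-5 is 1 of 5 human melanoma cell lines whose early transcriptional response to a RAF inhibitor was measured, and its response was set against that of the other 4. For each gene the response of a line is log2(signal + 12) at 250 nM minus the same value with solvent, and the difference is the response of SkMel-5 minus the mean response of SkMel-1, SkMel-28, SkMel-19 and Malme3M. SkMel-5 contributed 2 of the 12 arrays, 1 with solvent and 1 with drug, and the other lines contributed 8 that entered the comparison. The difference was computed for the 7178 genes, of 11963 with a named probe set, whose mean log2 signal over the 12 arrays reached 6.61 (a signal of 85.7).

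All 5 lines carry the V600E form of BRAF. They were grown in RPMI 1640 with 10% fetal bovine serum and kept for 8 h in 0.1% DMSO, the solvent, or in 250 nM PLX4032 (vemurafenib), a small molecule that inhibits RAF kinases. A further 2 arrays, of SkMel-19 and Malme3M at 1000 nM, gave no response here. They did enter the mean signal by which probe sets and genes were chosen. Each line is 1 culture per arm, so the spread below is between lines and holds no repeat of SkMel-5.

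The contrast was selected on measured values of these same arrays, so what it shows is a description and supports nothing beyond itself. SkMel-5 has 1 array per arm, and the error of its difference was taken from the spread of the other 4 responses, which assumes that it varies as they do. Every value for SkMel-5 rests on the same 2 arrays. In bulk RNA, fewer responding cells and a smaller response in each cell cannot be told apart.

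In melanoma cells with mutant BRAF, the kinase signals without an upstream stimulus through MEK to ERK. ERK switches on transcription factors of the ETS and AP-1 families, the cyclin D1 gene and MYC, and it also induces its own brakes, the dual-specificity phosphatases and Sprouty proteins. MYC in turn promotes ribosome assembly and nucleotide synthesis. MITF, the melanocyte lineage factor, and its relatives TFEB and TFE3 act on pigment and lysosome genes. A RAF inhibitor lowers the output of this cascade within hours.

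The labels fit the marker genes that were measured. Of 8 defining melanocyte genes 7 had a probe set, and in SkMel-5 all 7 (MITF, SOX10, PMEL, MLANA, TYR, TYRP1 and S100B) lay above the filter signal in both arms. Their summed signal in SkMel-5 was 61474 with DMSO and 65657 at 250 nM, against 31538 to 59254 and 41528 to 64986 in the other lines. Of 12 blood cell markers with a probe set 1 (LCP1) was above the filter in SkMel-5, as were 0 of 7 endothelial markers, 4 of 16 fibroblast markers and 5 of 12 keratinocyte and epithelial markers with DMSO. The summed fibroblast signal in SkMel-5 was 2015 with DMSO, above the other lines (850 to 1843). At 250 nM it was 2341, within theirs (840 to 2415). The sums of the blood, endothelial and keratinocyte and epithelial markers lay within the range of the other lines in both arms. Median signals of the 12 arrays ran from 102.5 to 130.4.

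No gene passed for the difference between SkMel-5 and the other lines. In limma's moderated test with Benjamini-Hochberg adjustment, 0 of 7178 genes had an adjusted p under 0.05 (0.0%), the smallest adjusted p was 0.371, and 368 genes (5.13%) had an unadjusted p under 0.05, 145 with a higher and 223 with a lower value in SkMel-5. The 5.13% is close to what an unadjusted threshold of 0.05 gives when no gene differs. The 95% interval of a gene's difference reached 0.58 to either side at the median, with quartiles of 0.47 and 0.73. These intervals, here and below, are not adjusted for the number of genes. Even so, a difference under about 1.5-fold could not be resolved for most genes, and no larger one passed after adjustment. The response of SkMel-5 lay above all 4 others for 1345 genes (18.7%) and below all 4 for 1593 (22.2%). For 1586 genes (22.1%) the whole interval lay within 1.5-fold either way, which takes in genes that were not called in the other lines. Of the 1836 genes called there (below) 294 had such an interval, as had 1 of the 208 that changed at least 2-fold.

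Genes that respond to the drug were defined without SkMel-5. In the other 4 lines 851 genes fell (11.9%) and 985 rose (13.7%) at a limma adjusted p under 0.05. SkMel-5 moved in the same direction for 1587 of these 1836 genes (86.4%). Its response was weaker than all 4 others for 942 (51.3%), stronger than all 4 for 74 (4.03%) and within their range for 820, where weaker means less far in the direction of the other lines and so takes in moves the opposite way. In all, 249 of the 1836 moved the opposite way. The median share of the other lines' mean response was 0.542. Among the 140 genes that fell at least 2-fold in the other lines SkMel-5 was lower too for 138, at a median share of 0.702, and among the 68 that rose at least 2-fold it was higher for 65, at 0.604. Because these genes were picked in the other lines, a line left out of the choice tends to look weaker.

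A tally that treats the 5 lines alike gave the same order. Over all 5 lines 2029 genes changed (28.3%, limma adjusted p under 0.05). SkMel-5 had the weakest response of the 5, opposite moves included, for 757 of them (37.3%), against 388 (19.1%) for SkMel-28, 344 (17.0%) for SkMel-19, 332 (16.4%) for SkMel-1 and 208 (10.3%) for Malme3M. It had the strongest response for 139 (6.85%), while Malme3M had it for 651 (32.1%). For most genes called in the other 4 lines SkMel-5 moved the same way, by less than their mean. It did not always move less than each of them.

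**Figure D1:**
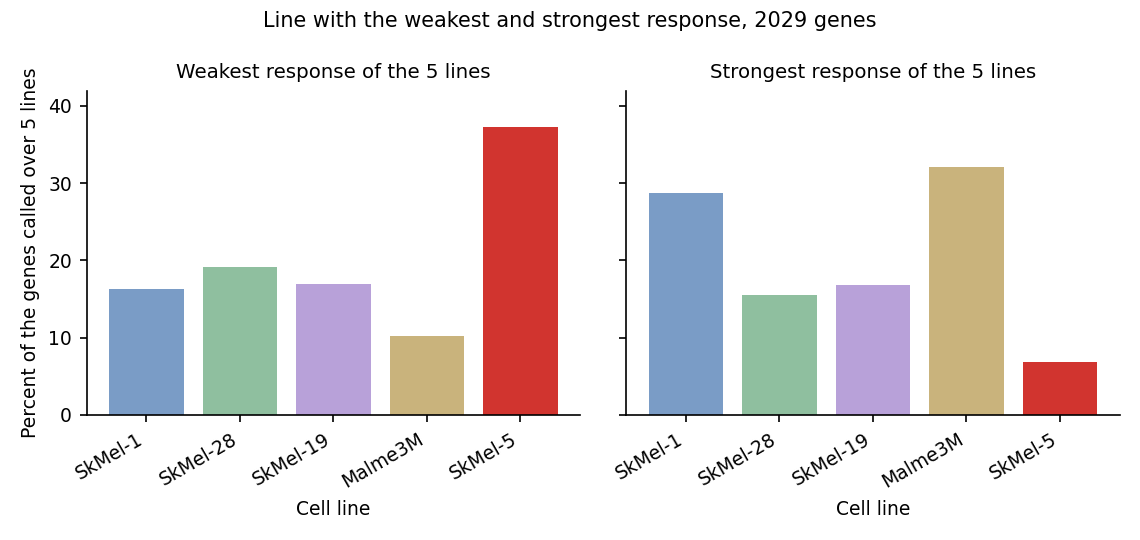
Percent of the 2029 genes called over all 5 lines for which each line had the weakest (left) or strongest (right) response, as bars from 0. SkMel-5 (red) was weakest for 37.3% and strongest for 6.85%.

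The size of the whole response was smaller in SkMel-5 as well. The standard deviation of the response over the 7178 genes was 0.376 in SkMel-5 and 0.449 to 0.571 in the other lines. In SkMel-5 115 genes were at least 2-fold lower and 42 at least 2-fold higher, against 143 to 262 and 114 to 191. The smaller size was plainer for rises: over the 52 genes that rose at least 2-fold across the 5 lines the median response was 0.92 in SkMel-5 and 1.17 to 1.64 elsewhere. Over the 117 that fell at least 2-fold it was -1.24 in SkMel-5, next to -1.32 in SkMel-19, -1.34 in SkMel-1, -1.42 in SkMel-28 and -1.99 in Malme3M.

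The pattern across genes was shared in part. The responses of SkMel-5 correlated with those of the other lines at Pearson 0.513 (SkMel-1) to 0.649 (Malme3M) across genes, and the other lines among themselves at 0.593 to 0.677. Of its 4 correlations 3 lay below the lowest pair of the other lines. Genes are not independent replicates, and the 4 values of SkMel-5 share its 2 arrays. A least-squares line of the SkMel-5 response on the mean of the others had a slope of 0.595, whereas each other line set against the mean of its 4 counterparts gave 0.802 to 1.20. From DMSO to 250 nM the 3'/5' signal ratio of the control probe sets changed in SkMel-5 by -0.113 (log2) for GAPDH and -0.134 for ACTB, below the other lines (-0.032 to 0.057 and -0.038 to 0.074), and its part in the result was not tested.

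**Figure D2:**
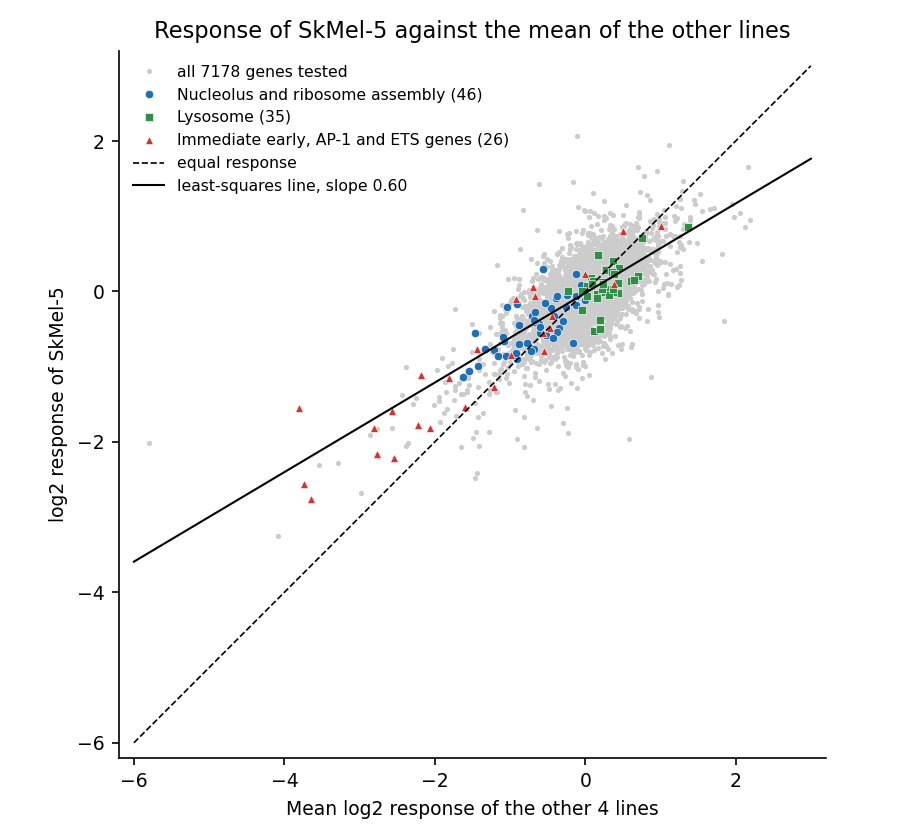
Response of SkMel-5 (vertical, log2) against the mean response of the other 4 lines (horizontal, log2) for the 7178 genes tested, with 3 gene lists in colour. The fitted line (slope 0.60) is flatter than the dashed line of equal response, and DUSP6 is the grey point farthest to the left.

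The brakes on ERK were lower at 250 nM in SkMel-5 too, and DUSP6 stood apart. DUSP6, the phosphatase that inactivates ERK, had a signal of 2669.5 with DMSO and 652 at 250 nM in SkMel-5, which left 24.4% of it. In SkMel-1 it went from 2362 to 23.3, in SkMel-28 from 1437 to 50.3, in SkMel-19 from 1067 to 12.2 and in Malme3M from 5927 to 31.5. SkMel-5 thus began inside the range of the other lines and ended above all of them. Its response was -2.01, against -4.54 to -7.09, a difference of 3.78 (95% interval 2.02 to 5.55). The other lines ended under the filter signal, so the size depends on how low signals are treated. With signals raised to that level the difference was 2.46, and 2 other DUSP6 probe sets gave 3.23 and 3.84.

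The other feedback genes were less unusual. SPRY4, a Sprouty inhibitor of receptor signalling, went from 515 to 94.9 in SkMel-5, a response of -2.30 that was weaker than all 4 others (-2.75 to -4.83). Its signal with DMSO was the lowest of the 5 lines (564.5 to 3957 elsewhere). At 250 nM it ended within the range of the others (64.3 to 127), near the filter signal, so SkMel-5 fell less from a lower start. SPRY2 (-3.25) and the phosphatase gene DUSP4 (-2.02) lay within the range of the other lines, which was -2.66 to -5.04 and -1.25 to -3.22. Of 14 listed ERK feedback genes 10 were measured. In the other lines 8 of them fell (80%, against 11.9% of all genes tested). In SkMel-5 the response lay above all 4 others for 3 of 10 (30%, against 18.7% of all genes tested) and below for 0 (against 22.2%). Of the 8 that fell it was weaker than all 4 for 2 (25%, against 51.3% of all genes called in the other lines). The median response of -1.54 lay within the range of the other lines (-1.35 to -2.89), and the median difference was 0.57, where that of all genes tested was -0.02. Of the 3 genes above the others, DUSP7 is the remaining one, and it had a response of 0.15, against -0.77 to 0.11.

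Transcription factors downstream of ERK were also mixed. Of 32 listed immediate early, AP-1 and ETS genes 26 were measured, of which 20 fell and 2 rose in the other lines. The called share was 84.6%, against 25.6% of all genes tested. SkMel-5 lay above all 4 others for 8 of 26 (30.8%, against 18.7% of all genes) and below for 0, and it was weaker than all 4 for 7 of the 22 called (31.8%, against 51.3%). Its median response was -0.98, within the range of -0.92 (SkMel-1) to -2.27 (Malme3M), and the median difference was 0.39. MAFF, a small MAF factor, went from 7879 to 2682 in SkMel-5 (-1.55) and by -2.42 in SkMel-28, -3.86 in SkMel-19, -4.09 in SkMel-1 and -4.84 in Malme3M. Its difference was 2.25 (0.61 to 3.90), and another MAFF probe set gave 1.23. SkMel-5 had the highest signal of the 5 lines with DMSO (1658 to 5586 elsewhere) and at 250 nM (77.0 to 1031).

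ETV4 and ETV5 are ETS genes of the PEA3 type. Their differences were of like size, and SkMel-5 lay outside the range of the other lines for ETV4 and within it for ETV5. ETV4 went from 1199 to 547 in SkMel-5, from 1250 to 305 in SkMel-1, from 589 to 89.0 in SkMel-28, from 1215 to 318 in SkMel-19 and from 2192 to 439 in Malme3M. With almost the same starting signal as SkMel-1 and SkMel-19, SkMel-5 kept more of it. The response of -1.12 lay above the others (-1.90 to -2.57), a difference of 1.07 (0.41 to 1.73). ETV5 had a response of -1.82, within the range of -1.79 to -3.73, with a difference of 0.99 (-0.53 to 2.50), and 2 other probe sets gave 0.97 and 1.34.

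Other outputs of the pathway overlapped with the other lines. FOSL1, an AP-1 subunit, had a response of -2.76 in SkMel-5 and of -2.69 to -4.92 elsewhere. Its signal in SkMel-5 was the lowest of the 5 lines with DMSO (482, others 508.5 to 2752). At 250 nM it was 60.9, within the 33.6 to 92.5 of the others, and 4 of the 10 arrays were under the filter signal. The response of IER3, a stress-response gene, was -2.56 (range -2.52 to -5.42), that of CCND1, the cyclin D1 gene, -2.28 (-2.12 to -4.54) and that of MYC -1.59 (-1.23 to -3.69). For each of these 4 SkMel-5 sat near the weak end of the range, next to SkMel-28 or SkMel-1. JUNB (0.05, range -0.25 to -1.37) and ETS2 (-0.10, range -0.78 to -1.27), an AP-1 and an ETS gene, barely moved in SkMel-5, but their signals were between 63.9 and 246 on all 10 arrays.

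**Figure D3:**
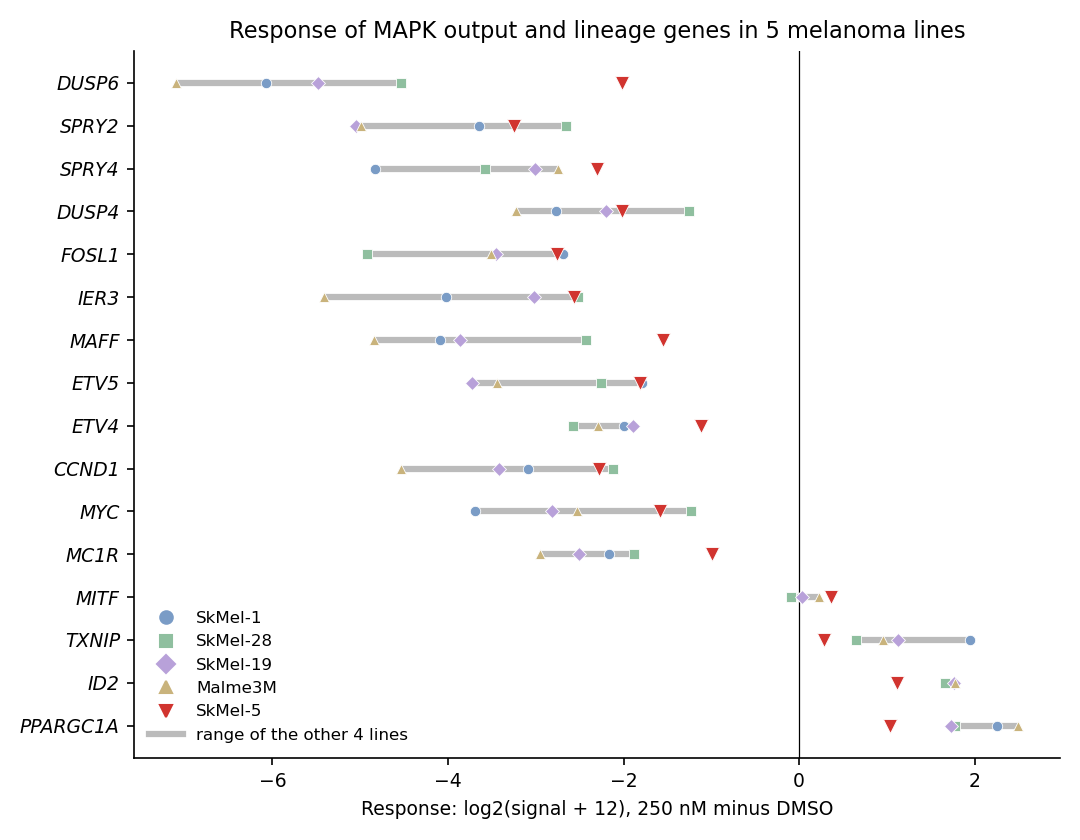
Response (log2(signal + 12), 250 nM minus DMSO) of 16 genes in each line, with the range of the other 4 lines as a grey bar. SkMel-5 (red triangles) lies to the right of the bar for DUSP6, SPRY4, MAFF, ETV4, MC1R and MITF, to the left of it for TXNIP, ID2 and PPARGC1A, and inside it for the rest.

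Genes of the cascade itself went both ways in SkMel-5. The median response of 14 measured RAS, RAF, MEK and ERK pathway genes was -0.08 in SkMel-5 and -0.13 to 0.01 in the other lines. SkMel-5 lay above all 4 for 4 of them (28.6%, against 18.7% of all genes tested) and below for 4 (28.6%, against 22.2%). MAPK3, which encodes ERK1, went from 226 to 576 in SkMel-5, from 859 to 836 in SkMel-1, from 350.0 to 381 in SkMel-28, from 503 to 816 in SkMel-19 and from 792 to 627 in Malme3M. The SkMel-5 signal with DMSO was the lowest of the 5, and at 250 nM it was within the range of the others. The response of 1.31 lay above all 4 (-0.33 to 0.69), a difference of 1.20 (0.38 to 2.01). MAP2K1, the gene for MEK1, was lower in SkMel-5 by 0.55 (others 0.00 to -0.27).

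Most ribosome assembly genes fell in the other lines, and SkMel-5 moved less for many of them, as it did for genes that fell in general. Of 59 listed nucleolar and ribosome assembly genes 46 were measured. In the other lines 35 of them fell (76.1%, against 11.9% of all genes tested) and 0 rose (against 13.7%). The median response was -0.46 in SkMel-5, -0.57 in SkMel-19, -0.58 in Malme3M, -0.62 in SkMel-28 and -0.82 in SkMel-1. SkMel-5 lay above all 4 others for 20 of 46 genes (43.5%, against 18.7% of all genes tested) and below for 2. Of the 35 that fell, its response was weaker than all 4 for 19 (54.3%) and stronger for 1, a share near that of all genes that fell (49.1%), and 42 of the 46 were lower in SkMel-5 too.

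Single members show the range. IMP3, part of the U3 small nucleolar ribonucleoprotein, went from 1726 to 1489 in SkMel-5, from 2099 to 891 in SkMel-1, from 1952 to 1089 in SkMel-28, from 1844 to 936 in SkMel-19 and from 2153 to 969 in Malme3M. All 4 other lines thus came down to between 891 and 1089, and SkMel-5 stayed above them. The response was -0.21, against -0.83 to -1.22, a difference of 0.83 (0.37 to 1.29). RRS1, a ribosome assembly factor, had a response of -0.56 (others -1.31 to -1.70) and PNO1, which acts in making the small subunit, one of -0.17 (-0.69 to -1.12). MYBBP1A, a nucleolar protein, was higher in SkMel-5 by 0.30 and lower in each other line by 0.33 to 0.73. TSR1, another small subunit factor, responded alike: -0.69 in SkMel-5 and -0.62 to -0.98 elsewhere, with an interval of -0.36 to 0.52.

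Since ETS factors act downstream of ERK, the promoters were searched for an ETS core. The 7 bases CCGGAAG, searched on both strands (CTTCCGG on the other) in the 250 bases before the RefSeq gene start, occurred in 16 of 40 ribosome assembly promoters (40%), in 1045 of 6058 promoters of genes tested (17.3%) and in 8.82% of all 27305. It occurred in 0 of 8 promoters of ERK feedback genes and in 1 of 18 of immediate early, AP-1 and ETS genes (5.56%). The 3 members with the largest differences among the 13 with a match in the last 150 bases (RRS1, IMP3, PNO1 and MYBBP1A are not among them) show its place. They are given from GRCh38.p14, on the gene's strand, with the match in capitals (in NOP16 2 matches, 1 on each strand, overlap). A match is a description of letters and not a site of binding.
NOP16, chr5:176388599-176388748, minus strand: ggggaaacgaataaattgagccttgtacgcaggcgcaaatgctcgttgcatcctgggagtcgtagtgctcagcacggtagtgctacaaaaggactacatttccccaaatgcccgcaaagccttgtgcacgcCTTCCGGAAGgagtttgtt
BRIX1, chr5:34915561-34915710, plus strand: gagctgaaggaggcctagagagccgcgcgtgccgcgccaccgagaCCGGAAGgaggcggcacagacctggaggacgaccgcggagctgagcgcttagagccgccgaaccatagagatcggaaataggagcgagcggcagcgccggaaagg
WDR74, chr11:62839591-62839740, minus strand: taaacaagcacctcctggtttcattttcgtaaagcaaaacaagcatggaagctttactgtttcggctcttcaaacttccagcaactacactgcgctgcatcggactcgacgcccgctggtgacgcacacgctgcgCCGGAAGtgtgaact
NOP16, a nucleolar protein, had a response of -0.76 in SkMel-5 and -1.22 to -1.46 in the others, and BRIX1, which acts in making the large subunit, one of -1.06 against -1.41 to -1.68. WDR74, also a nucleolar protein, had -0.65 against -0.72 to -1.35.

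Of 40 listed lysosome genes 35 were measured. In the other lines 17 of them rose (48.6%, against 13.7% of all genes tested) and 0 fell (against 11.9%). Of the 17, SkMel-5 was weaker than all 4 for 7 (41.2%, against 53.2% of all genes that rose). The median response was 0.10 in SkMel-5, 0.19 in SkMel-1, 0.24 in SkMel-28 and Malme3M and 0.33 in SkMel-19. SkMel-5 lay below all 4 others for 12 of 35 (34.3%, against 22.2% of all genes) and above for 1, with a median difference of -0.19. GM2A, a cofactor in ganglioside breakdown, went from 2509 to 2802 in SkMel-5, from 2448 to 4477 in SkMel-1, from 2786 to 4001 in SkMel-28, from 1450.3 to 2324 in SkMel-19 and from 1647 to 2351 in Malme3M. It was higher at 250 nM in all 5 lines, least so in SkMel-5 (0.16, others 0.51 to 0.87). LAMP2, a lysosomal membrane protein gene, had a response of -0.03 in SkMel-5 and 0.23 to 0.64 elsewhere. With DMSO the median lysosome gene was already 0.39 (log2) higher in SkMel-5 than the mean of the others.

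The E-box CACGTG, which reads the same on both strands and lies within the motif of the TFEB family, was found in 9 of 23 lysosome promoters (39.1%), in 9.44% of promoters of genes tested and in 6.49% of all. Of the 8 members with a match in the last 150 bases, the 3 with the largest differences are printed in the same way.
MCOLN1, chr19:7522474-7522623, plus strand: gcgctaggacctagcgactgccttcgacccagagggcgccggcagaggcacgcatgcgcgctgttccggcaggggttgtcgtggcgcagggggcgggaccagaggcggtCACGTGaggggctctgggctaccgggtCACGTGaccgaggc
CTSA, chr20:45891185-45891334, plus strand: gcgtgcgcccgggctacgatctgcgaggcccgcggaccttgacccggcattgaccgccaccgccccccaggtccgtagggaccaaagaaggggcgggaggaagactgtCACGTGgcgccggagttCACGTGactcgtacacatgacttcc
CTSD, chr11:1763928-1764077, minus strand: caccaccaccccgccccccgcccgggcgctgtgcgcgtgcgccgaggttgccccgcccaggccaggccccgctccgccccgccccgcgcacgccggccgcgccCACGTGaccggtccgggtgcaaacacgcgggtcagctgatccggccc
MCOLN1, a lysosomal cation channel, had a response of 0.21 in SkMel-5, within the range of -0.08 to 1.44. CTSA and CTSD, lysosomal proteases, had responses of -0.01 (others 0.31 to 0.46) and -0.00 (others 0.03 to 0.40).

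Cell cycle genes are given by phase. Of 44 measured genes of the G1/S transition and DNA replication 16 fell and 1 rose in the other lines. The called share was 38.6%, against 25.6% of all genes tested. SkMel-5 lay above all 4 for 10 of 44 (22.7%, near the 18.7% of all genes) and below for 3 (6.82%, against 22.2%). The median difference was 0.08. CDC25A, the phosphatase that activates CDK2, went from 335 to 133 in SkMel-5, a response of -1.26 (others -1.38 to -1.92), and CCNE2, a cyclin E gene, had -0.42 (others -0.52 to -1.92). Other members lay below all 4 lines: POLD1 had -0.35 (others 0.23 to 0.46) and CDK2 had -0.15 (others 0.07 to 0.80). Of the G2/M and mitosis genes 38 were measured, and 15 rose and 2 fell in the other lines. These 17 are 44.7% of the list, against 25.6% called of all genes tested. SkMel-5 was weaker than all 4 for 12 of these 17 (70.6%, against 51.3% of all genes called). Members went both ways: over the 38, SkMel-5 lay below all 4 for 17 (44.7%, against 22.2%) and above for 9 (23.7%, against 18.7%). CENPF, a kinetochore gene, went from 1948 to 1905 in SkMel-5 and rose elsewhere, from 940 to 1333 in SkMel-1, 1469 to 2001 in SkMel-28, 1716 to 3040 in SkMel-19 and 1732 to 2533 in Malme3M. Its difference was -0.61, and another CENPF probe set gave -0.24. NEK2, a mitotic kinase gene, had a response of 0.07 in SkMel-5 and of 0.37 to 0.53 in the others.

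Genes of arrest and quiescence were mixed. Of 20 measured CDK inhibitor and quiescence genes 10 rose and 2 fell in the other lines. The called share was 60%, against 25.6% of all genes tested. Of these 12 SkMel-5 was weaker than all 4 for 9 (75%, against 51.3% of all genes called). It lay below all 4 for 10 of 20 (50%, against 22.2% of all genes), with a median difference of -0.25. The median response itself, 0.23, was within the range of the other lines (0.21 to 0.38), above SkMel-28 and next to Malme3M. TXNIP, an inhibitor of glucose uptake, went from 765 to 931 in SkMel-5 (0.28), against responses of 0.65 in SkMel-28, 0.96 in Malme3M, 1.13 in SkMel-19 and 1.95 in SkMel-1. Its difference was -0.89, and 2 other TXNIP probe sets gave -0.56 and -0.40. CDKN1C, the gene for the CDK inhibitor p57, was lower in SkMel-5 by 1.29 (1574 to 637), and only Malme3M among the others came near (-0.81). ID2, whose product blocks basic helix-loop-helix proteins from binding DNA, had a response of 1.12 in SkMel-5 while the others lay close together at 1.66 to 1.77. Its difference was -0.60 (-0.97 to -0.23), and another ID2 probe set gave -1.24.

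Amino acid stress genes had medians well above 0 in 3 of the other lines and a median near 0 in SkMel-5. Of 27 measured ATF4 and unfolded protein response genes 12 rose and 2 fell over the other 4 lines. The called share was 51.85%, against 25.6% of all genes tested. SkMel-5 was weaker than all 4 for 7 of these 14 (50%, near the 51.3% of all genes called). It lay below all 4 for 8 of 27 (29.6%, against 22.2% of all genes) and above for 1 (3.7%, against 18.7%). The median response was 0.07 in SkMel-5, 0.05 in SkMel-28, 0.44 in Malme3M, 0.47 in SkMel-19 and 0.98 in SkMel-1, so that SkMel-5 and SkMel-28 stood together. DDIT3, the stress factor CHOP, separated them: 247 to 265 in SkMel-5, 159 to 359 in SkMel-28, 219 to 453 in SkMel-19, 177 to 263 in Malme3M and 977 to 2779 in SkMel-1. Its response was 0.10 in SkMel-5 and 0.54 to 1.5 elsewhere. CHAC1, which degrades glutathione, had -0.39 in SkMel-5 and 0.05 to 4.05 in the others, with an interval of the difference from -4.99 to 0.51.

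Aminoacyl-tRNA synthetases, which charge tRNAs and are ATF4 targets in part, had a median response of -0.08 in SkMel-5, next to SkMel-28 (-0.09) and below 0.10 to 0.50 in the other 3 lines. Of 16 measured genes 5 rose and 3 fell in the other lines (50% called, against 25.6% of all genes tested). The response of SkMel-5 was weaker than all 4 for each of these 8, against 51.3% of all genes called. AARS1, for alanine, went from 1508 to 1514 in SkMel-5 (0.01) and by 0.26 in SkMel-28, 0.59 in Malme3M, 0.85 in SkMel-1 and 0.96 in SkMel-19. CARS1, for cysteine, had -0.13 in SkMel-5, -0.04 in SkMel-28 and 0.70 to 1.02 in the other 3 lines.

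Lineage genes had small median responses, and SkMel-5 did not stand apart for the list, though single genes responded less there. Of 31 measured melanocyte and pigmentation genes 13 rose and 1 fell in the other lines (45.2% called, against 25.6% of all genes tested). The median response was 0.22 in SkMel-5 and 0.22 to 0.30 in the others. SkMel-5 was weaker than all 4 for 6 of these 14 (42.9%, against 51.3% of all genes called). It lay below all 4 for 6 of 31 (19.35%, against 22.2%) and above for 4 (12.9%, against 18.7%). The gene that fell in the other lines was MC1R, the receptor for melanocyte-stimulating hormone. It went from 305 to 147 in SkMel-5, from 3600 to 791 in SkMel-1, from 1216 to 320 in SkMel-28, from 935 to 155 in SkMel-19 and from 2076 to 258 in Malme3M. SkMel-5 had the lowest signal in both arms, and its response of -1.0 was weaker than all 4 (-1.89 to -2.95), a difference of 1.38 (0.53 to 2.23). PPARGC1A, the coactivator of mitochondrial biogenesis, went from 84.2 to 186 in SkMel-5 (1.04) and had 1.73 to 2.49 in the others. MITF had a response of 0.36 in SkMel-5 and -0.10 to 0.22 elsewhere, with an interval of the difference from -0.02 to 0.64, and RAB27A, which moves melanosomes, responded alike (0.77, others 0.64 to 1.13, interval of the difference -0.58 to 0.36).

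**Figure D4:**
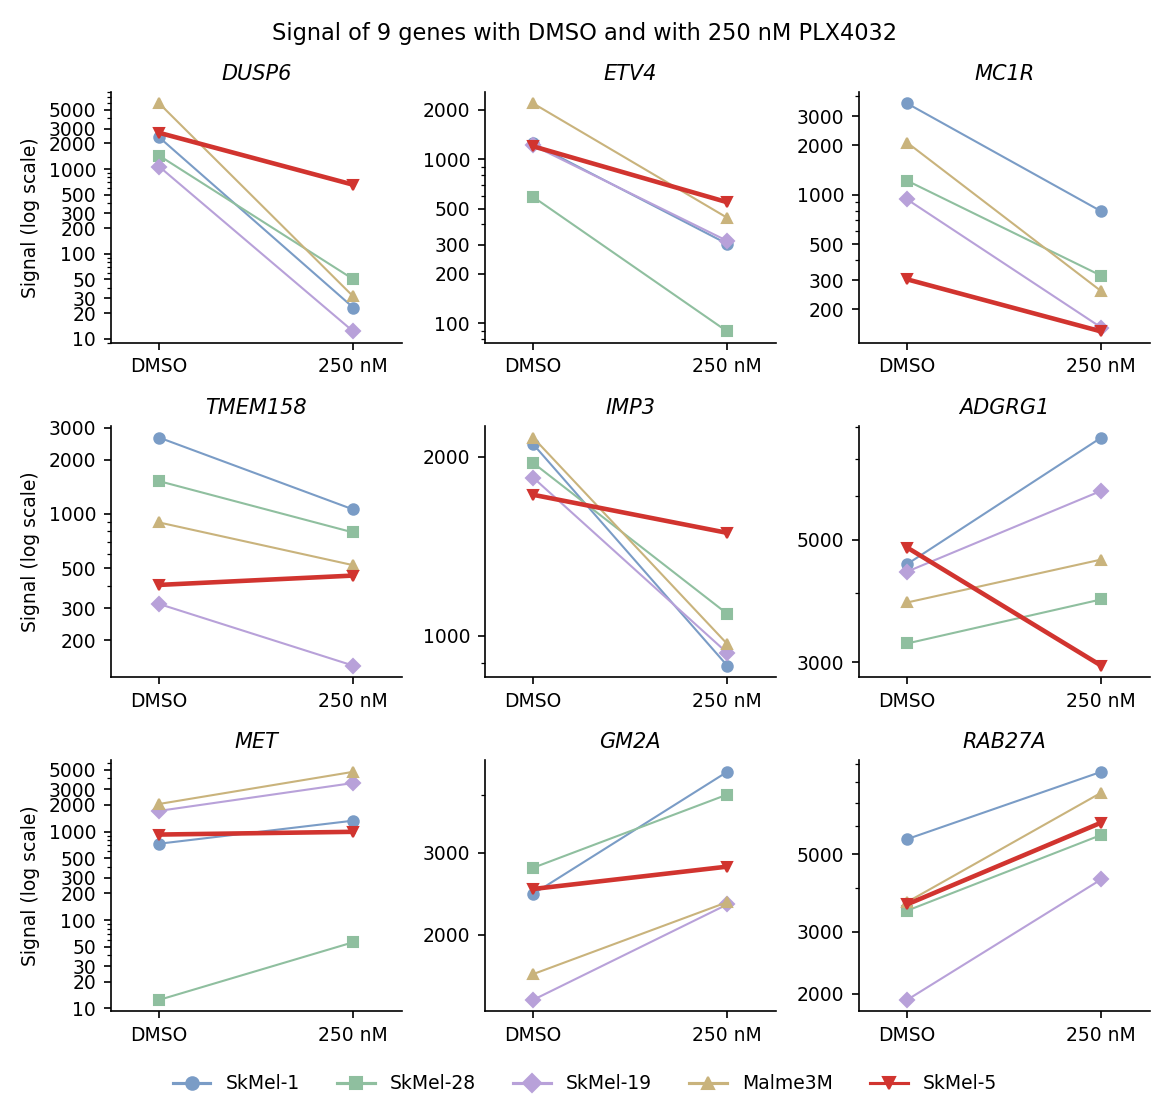
Signal (log axis) with DMSO and at 250 nM for 9 genes, 1 array per line and arm, with SkMel-5 in red. SkMel-5 starts among the other lines for DUSP6, ETV4, GM2A and RAB27A and ends above them for DUSP6 and ETV4, its line falls for ADGRG1 where the other 4 rise, and it runs alongside them for RAB27A.

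Among 13 measured receptor tyrosine kinases SkMel-5 lay below all 4 others for 4 (30.8%, against 22.2% of all genes) and above for 0, and its median response of 0.06 was within their range (-0.03 to 0.22). MET, the receptor for hepatocyte growth factor, went from 926 to 995 in SkMel-5, from 730 to 1330 in SkMel-1, from 12.5 to 56.1 in SkMel-28, from 1716 to 3546 in SkMel-19 and from 2054 to 4746 in Malme3M. MET rose in the other lines by 0.86 to 1.47 and by 0.10 in SkMel-5, a difference of -1.04 (-1.63 to -0.45), though 3 other MET probe sets gave -0.88 to -0.09. The 1.47 is that of SkMel-28, with both signals under the filter, and with low signals raised to it the difference was -0.67. ERBB3, a receptor for neuregulin, was lower in SkMel-5 by 0.85 and IGF1R, the receptor for insulin-like growth factor, by 0.57, both below the other 4 lines, though another IGF1R probe set gave a difference of -0.0077. Of 8 measured secreted factors SkMel-5 lay below all 4 for 3 (37.5%, against 22.2%) and above for 1 (12.5%, against 18.7%). Their median response was -1.41 in SkMel-5, below the others (-1.19 to -0.24), but the median difference was 0.15, so the list has no single direction. SEMA3C, a secreted semaphorin, had 0.95 in SkMel-5 and 1.62 to 3.05 elsewhere. HBEGF, an EGF receptor ligand, had -1.52 (357 to 117) against -1.11 to 0.19, with a difference of -1.07 (-2.15 to 0.01), but another HBEGF probe set gave -0.097.

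Several programmes had narrow intervals or a median difference near 0. Of 37 measured oxidative phosphorylation genes 28 had a 95% interval within 1.5-fold either way, as had 35 of 37 ribosomal protein genes, 23 of 26 proteasome genes and 13 of 22 glycolysis genes. Over all genes that share was 22.1%. Of the 37 ribosomal protein genes 0 were called in the other lines (against 25.6% of all genes tested), so their narrow intervals show no shared response. SkMel-5 lay above all 4 for 10 of them (27.0%, against 18.7%) and below for 0 (against 22.2%). Median differences were 0.03 for oxidative phosphorylation and glycolysis, 0.04 for ribosomal proteins, 0.02 for cholesterol synthesis and p53 targets, 0.05 for purine and pyrimidine synthesis and -0.04 for the BCL2 family. The intervals of the last 4 lists were wider: 2 of 17 cholesterol, 0 of 18 p53, 8 of 22 purine and pyrimidine and 2 of 14 BCL2 family genes lay within 1.5-fold. MCL1, an anti-apoptotic BCL2 relative, gave -0.60 in SkMel-5 and -0.45 to -0.57 in the others. Of 24 heat shock genes 11 had such an interval, but SkMel-5 lay above all 4 for 8 (33.3%, against 18.7%) and was weaker than all 4 for 9 of the 12 called (75%, against 51.3%).

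The proteasome was a small exception in direction. Its median response was 0.07 in SkMel-5 and -0.09 to 0.01 in the other lines, and SkMel-5 lay above all 4 for 15 of 26 genes (57.7%, against 18.7% of all genes) and below for 2. The differences were small, as for PSMC3, an ATPase subunit, with 0.13 in SkMel-5 and -0.07 to -0.17 elsewhere. For PSMC2, another such subunit, the probe set used gave a difference of 0.25 and a further one -0.066. Outside that list PSME1, an activator subunit of the proteasome, went from 654 to 1398 in SkMel-5 (1.08) and had -0.46 to 0.26 in the others. Of 12 reference genes SkMel-5 lay below all 4 for 5 (41.7%, against 22.2%) and above for 0 (against 18.7%), and the largest of these differences was that of TBP at -0.39.

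**Figure D5:**
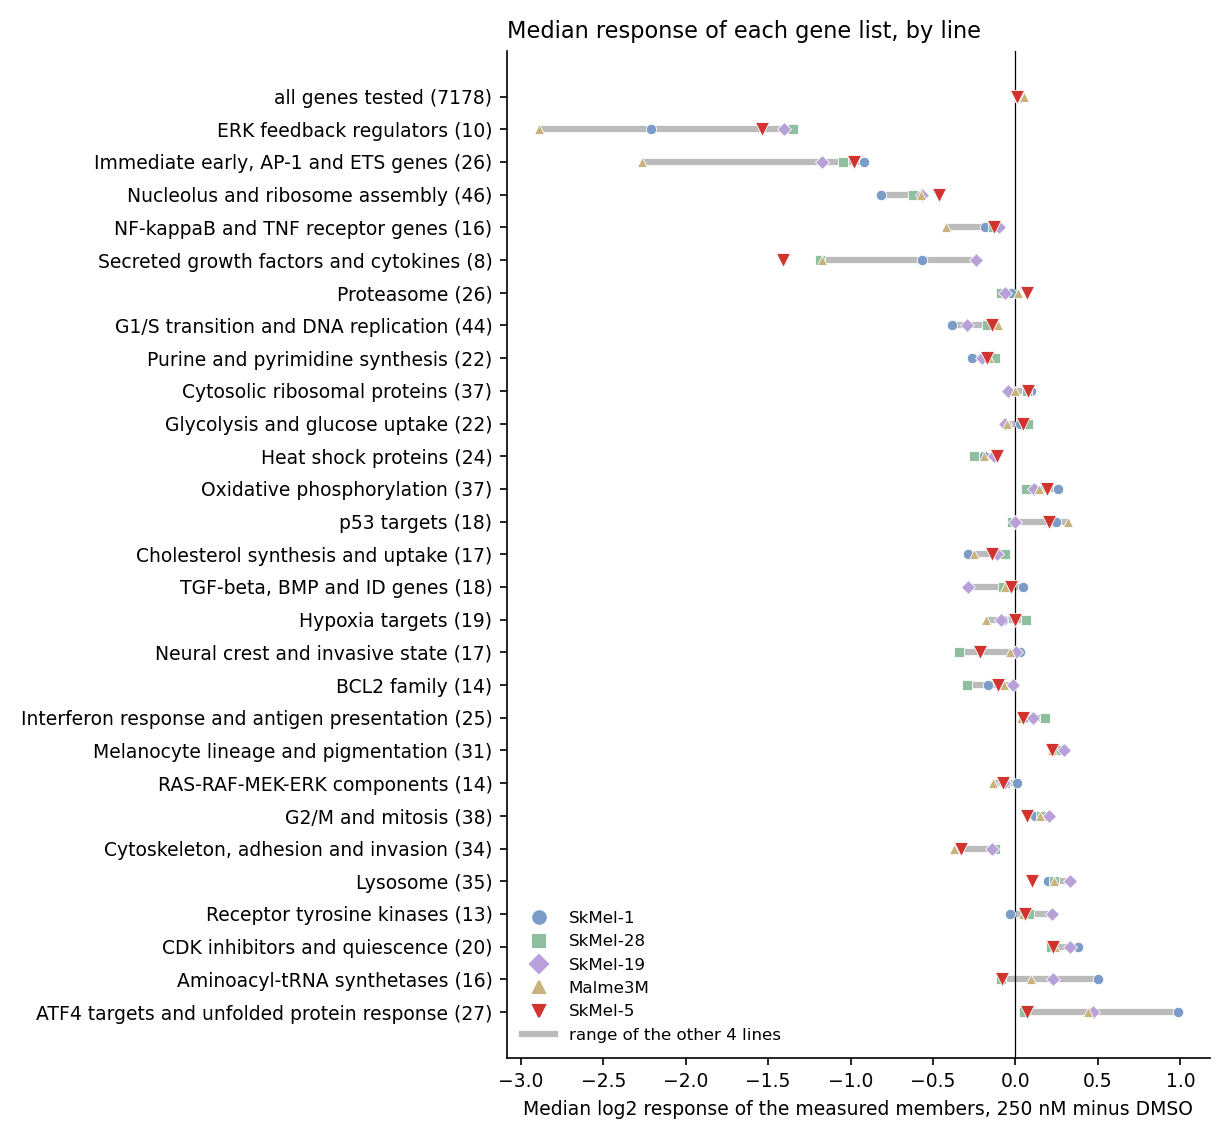
Median response (log2) of the measured members of each gene list with at least 8 measured, by line, ordered by the median difference of SkMel-5, with the number measured in brackets and the range of the other 4 lines as a grey bar. SkMel-5 (red triangles) lies right of the bar for ribosome assembly, the proteasome and heat shock proteins, left of it for lysosome, G2/M and secreted factor genes and for all genes tested, and within it for the other lists.

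Genes with the smallest p for the difference belonged to no single list, and none of them passed. Among those higher in SkMel-5, TMEM158, a RAS-induced membrane protein gene, went from 405 to 456 there, while it fell from 2645 to 1059 in SkMel-1, 1519 to 790 in SkMel-28, 318 to 145 in SkMel-19 and 897 to 520 in Malme3M (difference 1.19, 0.62 to 1.76). FZD7, a Wnt receptor, had 0.81 in SkMel-5 and -0.24 to -1.15 in the others, and a subunit of RNA polymerase III, POLR3K, had -0.03 against -0.69 to -0.99. Among those lower, ADGRG1, an adhesion G protein-coupled receptor, went from 4838 to 2961 in SkMel-5 and rose elsewhere (4515 to 7641, 3247 to 3900, 4377 to 6125 and 3850 to 4602 in SkMel-1, SkMel-28, SkMel-19 and Malme3M). Its difference was -1.15 (-1.61 to -0.68), and another probe set gave -1.10. SIRT7, a deacetylase of the nucleolus, had -0.59 in SkMel-5 and 0.22 to 0.54 in the others, and KAT6B, a histone acetyltransferase, -0.36 against 0.51 to 0.82, though 2 other KAT6B probe sets gave -0.58 and 0.06.

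Opposite moves were also seen for SREBF1 and SOS2, and for CCN2 against all other lines but SkMel-19. SREBF1, the lipid synthesis factor, was lower in SkMel-5 by 0.69 and higher in the others by 0.25 to 1.02. CCN2, a YAP target, went from 390 to 843 in SkMel-5 (1.09). It was lower in SkMel-1 (-1.39), SkMel-28 (-1.37) and Malme3M (-0.72) and a little higher in SkMel-19 (0.16). Of its 10 signals 3 were under the filter signal. SOS2, a RAS exchange factor, had -0.32 in SkMel-5 and 0.10 to 0.60 elsewhere, a difference of -0.73, while 2 other SOS2 probe sets gave -0.60 and -0.18. The genes with the smallest p of all, FXYD3 (2.9 to 50.2 in SkMel-5) and CLIP3 (83.3 to 12.4), had both SkMel-5 signals under 85.7, as had TMSB4X, IL1RAPL1, HOXB2 and JUP. With such signals raised to that level the difference of FXYD3 went from 2.17 to 0.11 and that of CLIP3 from -2.54 to -0.54.

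Genes with a clear response of nearly equal size were chosen for their narrow interval. MEX3C, an RNA-binding ubiquitin ligase gene, went from 835 to 402 in SkMel-5, 1313 to 553 in SkMel-1, 1037 to 424 in SkMel-28, 955 to 461 in SkMel-19 and 859 to 436 in Malme3M. Its response of -1.03 lay among -0.96 to -1.26. HBP1, a repressor of cell cycle genes, gave 0.92 (others 0.77 to 1.19), and IRAK1, a kinase of Toll-like receptor signalling, gave -0.76 (-0.69 to -1.10). IRF9, an interferon signalling factor, gave 0.69 (0.62 to 0.81). SLC25A15, the mitochondrial ornithine carrier, and POP7, a subunit of RNase P, gave -0.78 (-0.57 to -0.97) and -0.73 (-0.71 to -0.94).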

How the data were processed

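RNA was measured on 12 Affymetrix arrays, and the 10 with DMSO or 250 nM entered the responses and fits. The deposited table gives 1 linear intensity per probe set and array, made by the authors with GCOS, per the submitters' processing notes; the version, the summary of probes and the background step are not given in the sources used here. As deposited the arrays share 1 scale (trimmed means 498.3 to 499.9). Of 22215 probe sets that are not controls 19064 carried 1 gene symbol, 1043 several and 2108 none in the platform annotation, which can be old.

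Intensities were used as log2(signal + 12), where 20.3% of values lie under 12. The brightest probe set stood for a gene, and genes under the 40th percentile of mean signal were left out. Fits used limma 3.58.1 in R 4.3.3 (eBayes with a trend, Benjamini-Hochberg over all 7178 genes, threshold 0.05) with cell line as a block, since the same line gave both arms, as the labels say: the difference (10 arrays, 3 residual degrees of freedom), the other 4 lines (8 arrays, 3) and all 5 lines (10 arrays, 4). These fits share arrays. The code was tested on simulated data. Promoters are RefSeq's, GRCh38.p14.

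The contrast, the 33 gene lists, the tests and the other settings were chosen with earlier results of these data known. Genes named were 15 set by name, the 12 smallest p values in each direction with SkMel-5 outside the range of the other lines (0 passed), for each list the 4 members at most that differed most and lay outside it, and 8 genes called in the other lines with the largest mean and an interval within 1.5-fold. NOP16, BRIX1, WDR74, MCOLN1, CTSA and CTSD were chosen by their promoter match. Not all are described, and MIR1244-3, named through an old probe set annotation, is left out. Lines, not repeat cultures, are the replicates.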

Additional observations from a re-analysis of the deposited data

Results flagged for a closer look

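Of 190 responses and medians checked over the other 4 lines, 14 had 1 line far from the remaining 3 by Dixon's ratio, and chance gives about 1 in 20. The line far from the rest was SkMel-28 for NDRG2 (0.85), BLTP1 (0.29), ETS2 (-1.27) and TGIF1 (-0.85). It was SkMel-19 for FBXL7 (0.54), CDH2 (-1.14) and IRF9 (0.62), and SkMel-1 for STIP1 (-0.66), POP7 (-0.94) and MLANA (0.32). Malme3M stood apart for MSMO1 (-1.66), TAPBP (0.04), TNFRSF1A (-0.76) and the median of the cytoskeleton, adhesion and invasion genes (-0.37).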

How the results depend on the processing

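Of the 2002 values of named genes under 13 other settings 1993 kept their direction and their side of the threshold. FXYD3 passed with a pseudocount of 1 (3.82, limma adjusted p = 0.012), the 1 gene called for the difference in any setting. The sign turned for CDK2 (0.11) and HBP1 (0.33) with the mean of all probe sets, for ZDHHC14 (0.0039) with low signals raised, and, on leaving out 1 other line, for HBP1 (-0.12 to 0.018), POP7 (-0.0024 to 0.075), PMEL (-0.26 to 0.056), SLC25A15 (-0.012 to 0.12) and S100B (-0.056 to 0.27). With no replicate block 6 genes passed in the other 4 lines and 13 in all 5. With no filter on low signal the standard deviation of the SkMel-5 response was 0.454. Leaving out 1 other line gave 1110 to 1217 genes called in the other lines, 1288 to 1423 over all lines, and SkMel-5 as weakest for 43.7% to 47.5%, where 4 lines share the tally and fewer samples enter. The cause of the other changes was not tested. The median difference kept its sign in 11 of 11 settings for each of 11 lists followed, among them ribosome assembly (0.16 to 0.25), lysosome (-0.21 to -0.15) and ERK feedback genes (0.43 to 0.76). SkMel-5 with 1 array per arm, and signals under 85.7, limit the precision.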
